A study of Mus musculus with 6 samples.

Results

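The genes described here are 10 factors and feedback regulators of the NF-kB pathway: the subunit genes Nfkb1, Nfkb2, Rel, Rela and Relb, the inhibitor genes Nfkbia and Nfkbie, the deubiquitinase gene Tnfaip3, the nuclear cofactor gene Bcl3 and the adaptor gene Traf1. They were taken by symbol from the authors' deposited table of 29209 genes and transcripts, where each has 1 entry and all 10 are among the 18543 that carry an adjusted p. RNA came from subcutaneous tumours of NCr nude mice, a strain that lacks a thymus, seeded with splenic cells of diseased mir-155LSLtTA mice, in which doxycycline (DOX) turns the miR-155 transgene off. For 3 samples the host mice were fed DOX in chow (2.3 mg per kg) over the last 16 hours before the tumour was taken, and for 3 they received none. The injected cells of all 6 samples carry the transgene, and the labels give no age of the mice. As a transgene-free tumour with DOX is lacking in the design, effects of DOX itself and of miR-155 loss cannot be told apart. The cell type in which the transgene was switched on is not given in the labels.

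NF-kB is a family of dimeric transcription factors held in the cytoplasm by inhibitor proteins. In the canonical route, signals from TNF, interleukin 1 or Toll-like receptors activate a kinase complex that marks the inhibitor IkB alpha for destruction and frees dimers of RelA or c-Rel with p50. The alternative route is used by the lymphotoxin beta receptor and by the BAFF receptor of B cells. In it, the kinase NIK drives the processing of p100 to p52, the partner of RelB. Many of the pathway's brakes are themselves switched on by NF-kB, which closes a negative feedback loop, and the route supports the survival of B lymphoid cells.

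Because several of these genes are known targets of the family they belong to, the letters around their start sites are shown first. Promoter windows of 300 bases, 250 before the start site and 50 from it on, were taken from RefSeq (build GRCm38.p6), which held 11 windows for 8 of the 10 genes: Nfkb2, Tnfaip3, Rel, Rela, Nfkbia, Nfkbie, Bcl3 and Traf1. The kappaB consensus, the DNA motif bound by NF-kB dimers, was searched on both strands, and overlapping matches were merged into 1 stretch. A match lay in 8 of the 11 windows and at 6 of the 8 genes, against 4.51% of all 32851 windows and 5.14% of the 27025 genes that have one. The genes were chosen as NF-kB regulators, several of them known targets, so these counts describe that choice and were not tested. Rela and Traf1 were the genes with none in these windows, and a match is a description of the letters only, not a site shown to be bound. The windows of both genes that rose, Nfkb2 (chr19:46304487-46304786, plus strand, first start site) and Tnfaip3 (chr10:19015361-19015660, minus strand, first start site), are printed whole, 5′ to 3′, with matched stretches in capitals.
Nfkb2: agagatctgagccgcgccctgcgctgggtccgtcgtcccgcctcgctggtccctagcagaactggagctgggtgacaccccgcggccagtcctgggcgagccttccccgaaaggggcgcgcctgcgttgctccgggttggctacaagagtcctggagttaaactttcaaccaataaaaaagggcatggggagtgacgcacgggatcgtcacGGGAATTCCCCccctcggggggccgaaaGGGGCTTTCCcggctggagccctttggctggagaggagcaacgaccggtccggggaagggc
Tnfaip3: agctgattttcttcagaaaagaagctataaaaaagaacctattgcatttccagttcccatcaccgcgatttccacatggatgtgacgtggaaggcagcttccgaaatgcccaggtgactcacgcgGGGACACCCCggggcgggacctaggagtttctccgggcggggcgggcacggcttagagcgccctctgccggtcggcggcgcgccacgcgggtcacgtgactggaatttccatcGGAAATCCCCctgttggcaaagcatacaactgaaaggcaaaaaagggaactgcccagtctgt

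Pieces of 60 bases show the letters around matches at the other genes and at the second Nfkb2 start site, without marking the start. They are from Nfkb2 (chr19:46305680-46305739, plus strand), Nfkbia (chr12:55492642-55492701, minus strand), Nfkbie (chr17:45555569-45555628, plus strand), Bcl3 (chr7:19822719-19822778, minus strand) and Rel (chr11:23771027-23771086, minus strand).
Nfkb2: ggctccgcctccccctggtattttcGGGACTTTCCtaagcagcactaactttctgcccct
Nfkbia: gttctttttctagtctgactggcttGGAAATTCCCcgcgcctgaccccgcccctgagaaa
Nfkbie: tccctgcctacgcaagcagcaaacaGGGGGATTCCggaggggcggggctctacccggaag
Bcl3: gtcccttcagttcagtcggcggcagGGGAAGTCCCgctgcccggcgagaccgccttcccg
Rel: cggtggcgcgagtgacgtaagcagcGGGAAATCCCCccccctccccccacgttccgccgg

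Counting the start site as base 1 and the base before it as -1, the stretches at the first Nfkb2 start site began at bases -39 and -11, and that of Nfkbia at -29. Both stretches at Tnfaip3 began at -125 and -12, that of Rel at -92 and that of Nfkbie at -106. The Bcl3 stretch began at base 3, inside the transcribed part. The second Nfkb2 window held stretches from -236 and from 11, and the latter is the same stretch that lies at -225 of the third window, since both windows overlap. Tnfaip3 has a second annotated start site with no match.

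**Figure D1:**
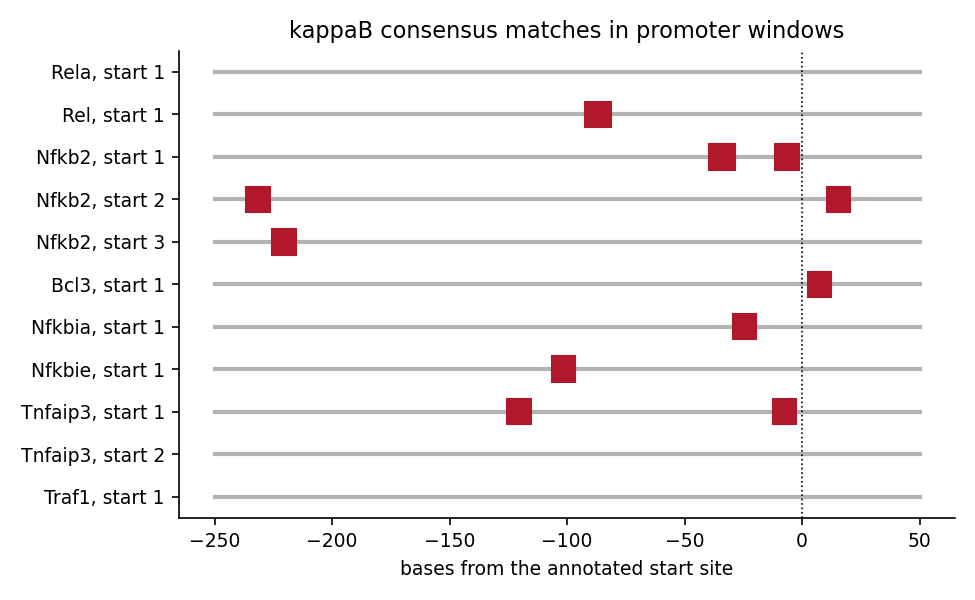
Position of kappaB consensus matches (red boxes, to scale) in the 11 RefSeq promoter windows of 8 NF-kB genes, drawn as grey lines from 250 bases before the start site (dotted line) to 50 bases from it on; the horizontal axis is in bases. The Rela and Traf1 windows and the second Tnfaip3 window hold no match, and the first Nfkb2 and Tnfaip3 windows hold 2 stretches each.

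Values per gene come from the authors' comparison of both groups, which gives a linear fold and p-values but no value per sample, so neither the spread between samples nor the sequencing depth can be shown. The table does not say which group is the numerator. Folds are read here as DOX over no DOX, and if the authors divided the other way, every "rose" and "fell" changes places, every log2 fold changes its sign, shares above 1 become shares below 1, and percentiles count from the other end. Nothing in the labels ties samples to separate animals, so the p-values reflect a spread between samples that may be technical. Calls were made where the deposited adjusted p, a Benjamini-Hochberg value over all 18543 genes, was under 0.05. An approximate standard error (SE) was derived for each gene by dividing its log2 fold by the normal quantile of its unadjusted p. This SE is not a deposited value, and it treats the p as that of a normal test of the fold. It is least reliable where the unadjusted p of the authors' comparison is large, as for Nfkb1 (0.884) and Rela (0.550).

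Of the 10 genes, 2 rose and 0 fell, and the genes that rose were Nfkb2, the precursor of p52, and Tnfaip3, which encodes the ubiquitin-editing brake A20. The background was 5.72% of tested genes higher and 5.61% lower. At an unadjusted p under 0.05, 6 of the 10 were higher and 0 lower, where 11.9% of tested genes were higher and 10.4% lower. Of the 10, 8 had a fold above 1, as did 59.4% of all tested genes. That share counts 2180 ratios of Inf as above 1, while each of the 10 has a finite fold. The median log2 fold of the 10 was 1.10, from -0.30 to 2.35, beside 0.17 over the 15784 finite folds of the table. These are bulk samples, in which more cells of a type and more RNA per cell cannot be told apart.

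**Figure D2:**
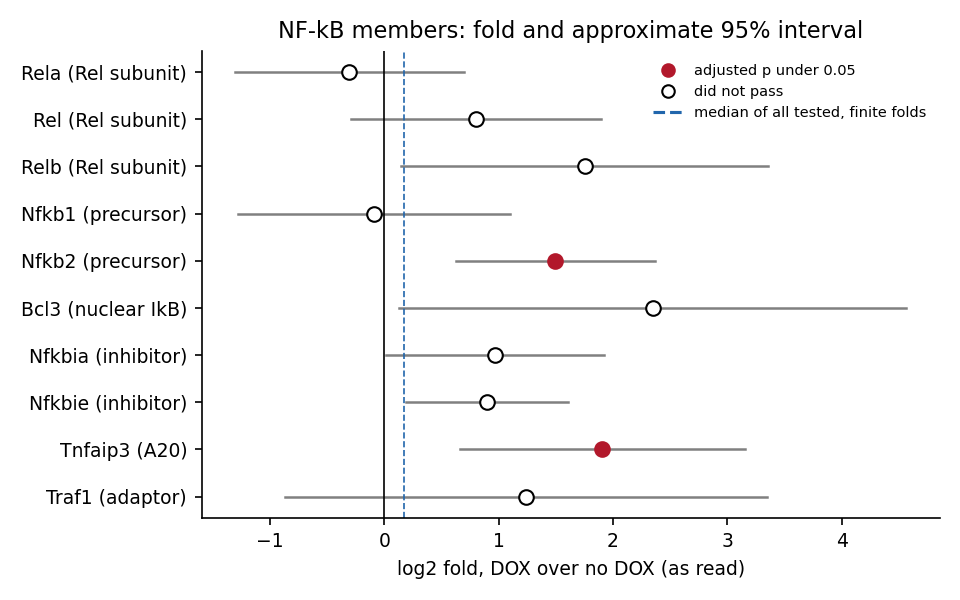
Log2 fold (horizontal axis, DOX over no DOX as read) of the 10 NF-kB genes with an approximate 95% interval derived from the fold and the unadjusted p (bars); red points passed an adjusted p under 0.05, and the dashed line is the median of all tested genes with a finite fold (0.17). Nfkb2 (1.50) and Tnfaip3 (1.91) passed, Bcl3 has the highest fold and the widest interval, and Rela and Nfkb1 lie beside 0.

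Among the DNA-binding subunits, the p100 gene alone passed. Nfkb2, listed with the transcript NM_001177370, had a fold of 2.82 (log2 1.50, approximate SE 0.44, adjusted p = 0.0117) in the authors' deposited table and ranked 1216 of 18543 by unadjusted p. Its dimer partner gene Relb had a larger fold of 3.37 (log2 1.75) with nearly double the approximate SE, 0.82, and did not pass (adjusted p = 0.169) in the authors' deposited table. Both genes belong to the alternative route. Nfkb1, which encodes p105 and its product p50, stood at a log2 fold of -0.09 (approximate SE 0.61, adjusted p = 1) in the authors' deposited table.

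Rela, the gene of the main canonical subunit p65, stood at -0.30 (approximate SE 0.51, adjusted p = 0.903) in the authors' deposited table. For Rel, the c-Rel subunit prominent in lymphocytes, the authors' deposited table gives 0.80 (approximate SE 0.56, adjusted p = 0.452). No change was detectable in Nfkb1, Rel or Rela. Their approximate 95% intervals, -1.28 to 1.10 for Nfkb1, -1.30 to 0.69 for Rela and -0.29 to 1.89 for Rel on the log2 scale, each take in a 2-fold change in at least 1 direction, so that these genes stayed level is not shown. Whether the fold of Nfkb2 differs from that of Nfkb1 or Rela was not tested, since the table holds no value per sample.

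The feedback inhibitors among the 10 genes, Tnfaip3, Nfkbie and Nfkbia, all had folds above 1, with 1 call. Of all tested genes, 59.4% had a fold above 1 and 5.72% rose, and so short a list cannot be read against these shares. Tnfaip3, listed with the transcript NM_001166402, had a fold of 3.75 (log2 1.91, approximate SE 0.64, adjusted p = 0.0294) in the authors' deposited table and ranked 1706 by unadjusted p. Nfkbie, which encodes IkB epsilon, had the smallest approximate SE of the 10 genes, 0.36, and missed the threshold at a log2 fold of 0.90 (adjusted p = 0.0888) in the authors' deposited table. Nfkbia, the gene of IkB alpha and the best known feedback target, stood close to it at 0.97 (approximate SE 0.48, adjusted p = 0.210) in the authors' deposited table. Nfkbie and Nfkbia thus have nearly the same fold, and neither passed. Nfkbib, the IkB beta gene, is not 1 of the 10 and is named after its values were seen. It stood at -0.80 (adjusted p = 0.409) in the authors' deposited table and did not pass.

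Bcl3 encodes an atypical IkB protein that works in the nucleus with p50 and p52 dimers. Its fold was the highest of the 10 genes at 5.09 (log2 2.35), but with an approximate SE of 1.13 it did not pass (adjusted p = 0.187) in the authors' deposited table. Traf1, an adaptor of TNF receptor signalling and a known NF-kB target, had a log2 fold of 1.24 with an approximate SE of 1.08 (adjusted p = 0.606) in the authors' deposited table. Bcl3 and Traf1 have the widest approximate error of the 10 genes, and neither was called.

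**Figure D3:**
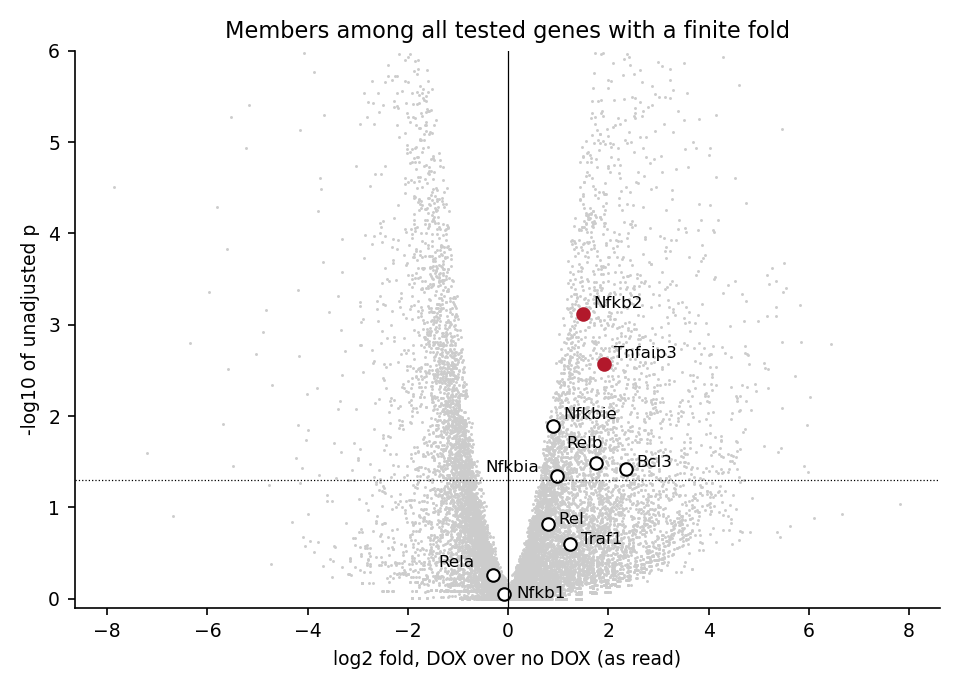
Each grey point is a tested gene with a finite fold, by log2 fold (horizontal axis) and -log10 of the unadjusted p (vertical axis, drawn up to 6); the 10 NF-kB genes are labelled, in red where the adjusted p was under 0.05, and the dotted line marks an unadjusted p of 0.05. The 6 genes above the dotted line, Nfkb2, Tnfaip3, Nfkbie, Relb, Bcl3 and Nfkbia, all lie to the right of 0.

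Percentiles place each fold among the 15784 finite folds. Bcl3 lay at percentile 91.6, Tnfaip3 at 86.7, Relb at 84.6 and Nfkb2 at 80.8. Traf1 (76.3), Nfkbia (71.0), Nfkbie (69.4) and Rel (67.1) followed, and Nfkb1 (41.1) and Rela (33.8) lay below the middle. The fold of each gene called, Nfkb2 and Tnfaip3, was thus exceeded by many other genes of the table.

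In order of the fold, neighbours from Bcl3 down to Rel lie within 1 approximate SE of each other. The step from Rel (0.80) to Nfkb1 (-0.09) in the authors' deposited table is the widest between neighbours. It measures 0.89, slightly more than the 0.82 that both approximate SEs give when combined as independent errors, or 1.08 times it. These steps were not tested, and all values rest on the same 6 samples.

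The study turned miR-155 off, so the genes were also searched for matches to its seed, the bases at positions 2 to 8 that pair with target transcripts. The mature strand (RefSeq, chr16:84714143-84714165, plus strand, GRCm38.p6) is shown with the seed in capitals, followed by the 1 site found in the 10 genes, with the match in capitals.
mmu-miR-155-5p: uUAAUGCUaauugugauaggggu
Rela: ctttcgcaggAGCATTAAcctcctggag

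A 7-base match (AGCATTA or GCATTAA) in the longest annotated 3′ UTR was present in Rela alone of the 10, and in 12.6% of 21028 genes with a 3′ UTR in GENCODE M21. The Rela site spans 8 bases, holds both 7-base forms, and begins at base 171 of a 714-base 3′ UTR. Rela had a fold below 1, and its change was not detectable. The 3′ UTRs of the other 9 genes, from 336 bases in Relb to 5418 in Rel, held no such match.

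Upstream of these genes, ligand genes had folds in both directions, 5 of 8 tested above 1 and 3 below. Of the 8, 2 fell and 0 rose, a count too small to read against the background of 5.61% lower and 5.72% higher: Tnf (log2 fold -3.82, adjusted p = 0.0454), the main canonical ligand, and Tnfsf11 (-5.96, adjusted p = 0.00776), which encodes RANK ligand, in the authors' deposited table. Among ligand genes at an unadjusted p under 0.05, 2 were higher and 3 lower, where 11.9% of tested genes were higher and 10.4% lower. The 2 higher ones, named after their values were seen, did not pass: Il1b, the gene of interleukin 1 beta, stood at 5.90 (adjusted p = 0.178) and Tnfsf14, which encodes the lymphotoxin receptor ligand LIGHT, at 3.84 (adjusted p = 0.217) in the authors' deposited table. Besides Tnf and Tnfsf11, the lower ones held Lta, the lymphotoxin alpha gene, also named after its values were seen. Lta stood at -7.20 (approximate SE 3.23, adjusted p = 0.144) in the authors' deposited table and did not pass. Among 14 receptor genes, 1 fell and 0 rose, again too few to read against the background: Tnfrsf13c, the BAFF receptor of B cells, at a log2 fold of -1.51 (adjusted p = 0.00495) in the authors' deposited table. Among receptor genes at an unadjusted p under 0.05, 4 were higher and 2 lower. Ltbr, the lymphotoxin beta receptor gene and another entry to the alternative route, stood at 3.34 and did not pass (adjusted p = 0.260) in the authors' deposited table; it is named for its role after its values were seen. The list medians were 1.28 for ligands and 1.31 for receptors over finite folds. In each list 1 gene has a ratio listed as Inf, which gives no finite fold and counts as above 1.

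Among 28 adaptors and kinases, 2 rose and 1 fell, where 5.72% of all tested genes rose and 5.61% fell. The list's median log2 fold was 0.14, close to the 0.17 of all tested genes. Traf5, an adaptor of CD40 and lymphotoxin receptors, rose at a log2 fold of 2.26 (adjusted p = 2.81e-06), and Birc2, the ubiquitin ligase cIAP1, rose at a log2 fold of 1.27 (adjusted p = 0.0218) in the authors' deposited table. The genes of the IkB kinase complex, named after their values were seen, did not pass: Ikbkb stood at 0.03, Ikbkg at 0.18 and Chuk at 0.82 (adjusted p = 1, 0.914 and 0.307) in the authors' deposited table. Map3k14, which encodes NIK, stood at -0.35 (adjusted p = 0.817), and Traf3, which holds NIK low, at 0.18 (adjusted p = 0.850) in the authors' deposited table, also named after their values were seen. No change was thus detectable in Ikbkb, Ikbkg, Chuk or Map3k14 at the precision of the table.

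Other brakes of the pathway held 1 call. Of 16 tested, Nfkbiz, the inducible nuclear IkB zeta, rose at a log2 fold of 1.38 (adjusted p = 0.0251) in the authors' deposited table, and 0 fell. This count is too small to read against the background of 5.72% higher and 5.61% lower. At an unadjusted p under 0.05, 4 brakes were higher and 2 lower, where 11.9% of tested genes were higher and 10.4% lower. The median of these brakes was 0.30. Cyld, a deubiquitinase that works beside A20 and is named after its values were seen, stood at 0.85 (adjusted p = 0.160) in the authors' deposited table. The 2 lower brakes at an unadjusted p under 0.05, also named after their values were seen, did not pass. They were Commd1 (-1.28, adjusted p = 0.0991) and Pdlim2 (-1.04, adjusted p = 0.212) in the authors' deposited table.

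Among 27 tested target genes, 1 rose and 1 fell, no more than the background of 5.72% higher and 5.61% lower. Mmp9, a matrix-degrading protease, rose at a log2 fold of 2.17 (adjusted p = 0.0252), and Ccnd1, the gene of cyclin D1, fell at a log2 fold of -2.85 (adjusted p = 0.00270) in the authors' deposited table. Their median log2 fold was 1.96 over the 21 with a finite fold. Several of these folds have an approximate SE larger than the log2 fold, as for Ccl4 (2.26, SE 4.18) and Bcl2a1a (2.75, SE 3.86). At an unadjusted p under 0.05, 3 of the 27 were higher and 1 lower, where 11.9% of tested genes were higher and 10.4% lower. A ratio above 1 was listed for 24 of the 27. This includes 6 listed as Inf, for which no fold is given. Over all 5 pathway lists, 66 of 93 tested genes (71.0%) had a fold above 1, beside 59.4% of all tested genes. Of the 93, 4 rose and 5 fell, near the background share in each direction.

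**Figure D4:**
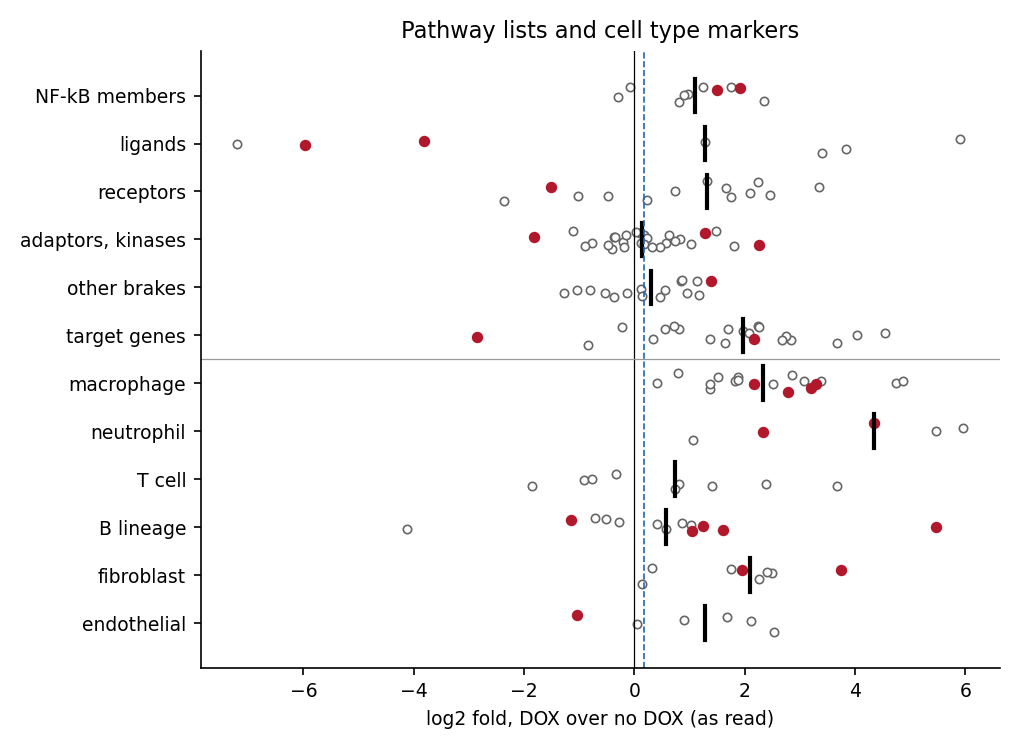
Log2 fold (horizontal axis) of each tested gene with a finite fold in the NF-kB set, the 5 pathway lists and, below the grey line, 6 lists of cell type markers; red points passed an adjusted p under 0.05, black bars are list medians, and the dashed line is the median of all tested genes with a finite fold (0.17). All 18 macrophage and all 8 fibroblast markers lie to the right of 0.

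Markers of myeloid cells and fibroblasts also had folds above 1 in this comparison. The background for their counts was 5.72% of tested genes higher, 5.61% lower and 59.4% with a fold above 1. All 18 tested macrophage markers had a fold above 1, with a median log2 fold of 2.34, from 0.41 to 4.86, and 4 rose and 0 fell. Csf1r (log2 fold 2.16, adjusted p = 1.45e-05), Mertk (3.30, 0.000172) and Ccr2 (2.78, 0.000233) led this list in the authors' deposited table. Among 7 neutrophil markers 2 rose and 0 fell, Cxcr2, listed as Il8rb (2.33, adjusted p = 0.0177), and Csf3r (4.34, adjusted p = 0.0240) in the authors' deposited table. All 8 fibroblast markers had a fold above 1 (median 2.10), and 2 rose, Postn (3.74, adjusted p = 0.000499) and Pdgfra (1.95, adjusted p = 0.00313), in the authors' deposited table. At an unadjusted p under 0.05, 12 of 18 macrophage, 4 of 7 neutrophil and 4 of 8 fibroblast markers were higher, and 0 of each list were lower. At that p, 11.9% of tested genes were higher and 10.4% lower. In the neutrophil list Mpo has a ratio of 0 and Camp one of Inf, and Ltf carries no adjusted p. Macrophages and neutrophils also express NF-kB genes, and their part in the folds of the 10 genes was not tested.

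The B lineage markers held calls in both directions. Of 13, 4 rose and 1 fell, with a median of 0.56, where 5.72% of all tested genes rose and 5.61% fell. Rag1 (5.46, adjusted p = 1.22e-06) and Ebf1 (1.61, adjusted p = 0.000853) rose and Igll1 (-1.14, adjusted p = 0.00700) fell in the authors' deposited table. Among 9 T cell markers, 0 rose and 0 fell by the authors' DESeq values, with a median of 0.74, and Cd3d carries no adjusted p. At an unadjusted p under 0.05, 4 B lineage markers were higher and 3 lower, and 1 T cell marker was higher and 0 lower. At that p, 11.9% of tested genes were higher and 10.4% lower. Of 6 endothelial markers 1 fell, Eng (-1.04, adjusted p = 0.0361), in the authors' deposited table, and 0 rose. A fold above 1 was found for 5 of the 6, beside 59.4% of all tested genes, and the median was 1.28. Among the endothelial markers, 1 was higher and 1 lower at an unadjusted p under 0.05.

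Transcript length and GC content of the 10 genes were set beside those of all tested genes. The longest coding transcripts of the 10 had a median length of 3076 bases, beside 3111 for 14113 tested genes with a GENCODE entry, and a median GC content of 54.8%, beside 50.3%. They ranged from 1578 bases in Nfkbia to 7466 in Rel. Of the 10975 tested genes in that range of lengths, 5.01% rose and 6.11% fell, close to the background of all tested genes.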

How the data were processed

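RNA of 6 tumour samples was sequenced after ribosomal RNA depletion, per the labels' protocols. The submitters' processing notes name RSEM and DESeq and the mouse build mm9; other steps and the versions are not given. The deposited table gives the authors' fold change as a linear ratio with unadjusted and adjusted p-values from the authors. Recomputed Benjamini-Hochberg values differed from the deposited ones by at most 2.09e-06. The depth of the samples is unknown, and no sample-level test or measure of likeness between genes could be computed.

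Log2 folds were taken from the ratio (Python 3.11.15, pandas 2.3.3, numpy 2.4.6, scipy 1.17.1). The ratio is Inf for 2180 tested entries and 0 for 579. These have no finite fold and stay out of medians and percentiles. In counts and shares above 1, a ratio of Inf counts as above 1 and a ratio of 0 as below 1. The 10 genes and the 5 pathway and 6 marker lists were chosen with earlier results of these data known. Of 173 list genes 161 matched by symbol, 2 by RefSeq accession and 6 by a unique synonym, and 4 had no match. All 10 genes were named, with every called gene of a pathway list (at most 6) and of a marker list (at most 3, by adjusted p). Of the genes this rule names, 1 is not reported here. List counts and medians are descriptions and were not tested. Sequences came from RefSeq and GENCODE M21, both GRCm38 and matched by symbol; no mm9 coordinates were used. The adjustment and the motif search were tested on simulated data. Alternatives were other thresholds, a Bonferroni adjustment, a minimum of 2-fold and adjustment over fewer genes.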

Additional observations from a re-analysis of the deposited data

How the results depend on the processing

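The 2 calls among the NF-kB genes, Nfkb2 and Tnfaip3, held with a minimum of 2-fold, with adjustment over finite folds, and with adjustment over protein-coding matches, a setting chosen after seeing the data. At an adjusted p under 0.01 and under Bonferroni 0 of the 10 genes rose, by construction stricter, and at 0.1 Nfkbie joined, giving 3. None of the 10 fell under any of these settings. Of all 18543 tested genes, 576 were higher and 569 lower at 0.01, and 137 and 154 under Bonferroni. At 0.1, 1436 of the 18543 were higher and 1362 lower. Of the 93 tested genes of the pathway lists, 1 rose and 4 fell at 0.01, and 1 rose and 0 fell under Bonferroni. At 0.1, 10 of the 93 rose and 9 fell. Relative to the median of all tested genes, the median log2 fold of the 10 genes was 0.93 in place of 1.10. No paired analysis was possible because the table holds no value per sample, and leaving out replicates was not run for the same reason. The deposited log2 column was not used, since some of its cells are not numbers.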

Other observations

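Promoter matches to the kappaB consensus were also counted over all tested genes, after the data were seen and with no test. The NF-kB genes stayed in these counts, so Nfkb2 and Tnfaip3, which rose, are among the genes with a match. Of 11503 tested genes with a RefSeq promoter window, 727 held a match. Of these 6.60% rose and 5.36% fell, against 5.29% and 7.37% of the 10776 without a match, and the median log2 folds were 0.12 and 0.02. Over all tested genes, with or without a window, 5.72% rose and 5.61% fell. Their median over finite folds was 0.17, above that of the genes with a match. Named by the smallest adjusted p among genes with a match, Thbs2, a matricellular protein gene (3.15), and Tifa, listed as T2bp, which encodes an adaptor that binds TRAF proteins (2.87), rose in the authors' deposited table. Prdx1, a peroxiredoxin gene (-2.97), Prdm8 (-2.79) and Set (-2.04) fell in the authors' deposited table.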
